A study of Mus musculus with 8 samples.

Results

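Human STING (hSTING) was expressed in mouse embryonic fibroblasts (MEFs) that lack the endogenous gene for STING, and the cells were given double-stranded DNA (dsDNA) or left as a control. The response described here is the array signal of the hSTING cells with dsDNA minus that of the hSTING control cells, 1 array for each, so 2 of the 8 arrays of the series. The arrays were chosen by their titles alone. The treated culture received dsDNA with the transfection reagent Lipofectamine 2000 for 9 h. The labels do not tell whether the control culture had the reagent without DNA.

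All 8 cultures are of the STING-/- genotype, and the labels call them primary MEFs. Besides hSTING, the series holds cells with the N154S form of STING, which the design text links to the disease SAVI, with the R284S variant, and with the empty pBabe vector, each as 1 array with dsDNA and 1 control array. No label tells if a line is a clone or a pool, or how much hSTING protein it makes. The human gene has no readout on these mouse arrays, and the mouse gene Sting1 read 4.22 with dsDNA and 3.84 in the hSTING control, both below the median of named genes. Which part of Sting1 was deleted is not stated in the labels, so this signal does not check the genotype.

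STING sits in the membrane of the endoplasmic reticulum and is activated by the cyclic dinucleotide that the enzyme cGAS makes when it meets DNA in the cytosol. Active STING recruits the kinase TBK1, which phosphorylates the transcription factor IRF3 and so starts transcription of the type I interferon genes, and it also activates NF-kB. Secreted interferon then binds its receptor and turns on the interferon-stimulated genes, many of which block virus growth. In fibroblasts the pathway is known for antiviral defence and for the release of chemokines and cytokines.

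Signals are log2 array values, and a difference of 1 is a 2-fold ratio. There were 22180 genes with a probe set of their own, 18964 of them protein coding. The median signal over these genes was 4.45 on both hSTING arrays, and a gene was counted as higher or lower if its 2 signals differed 2-fold or more and the brighter one was at or above that median. A dimmer signal below its median was replaced by that median, and the fold is then given as a lower bound. With 1 array a side, differences within hSTING cells have no replicate check and no test. As a scale for them, the differences of 26 reference genes had a median of -0.07 and an SD of 0.26 between genes. Among these, the ribosomal protein gene Rps18 was lowest at -0.85 and the transferrin receptor gene Tfrc highest at 0.65. Array medians over all probe sets ranged from 3.79 to 3.85, and Pearson's r between any 2 arrays from 0.973 to 0.989 across probe sets, which are not independent replicates.

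The labelled cell type was set against marker genes. All 18 fibroblast markers were at or above the median on both hSTING arrays, with Col1a1, a chain of type I collagen, at 11.11 with dsDNA and 11.33 in the control, and the filament gene Vim at 12.65 and 12.80. Of 18 macrophage markers, 14 were below the median with dsDNA and 15 in the control, among them on both arrays the leukocyte gene Ptprc at 2.67 and 2.52 and the macrophage gene Adgre1 at 2.88 and 2.57. The sum of log2 signals over the macrophage list was 71.3 with dsDNA and 65.9 in the control, where 1 member, Mpeg1, had a difference of 3.66. For lymphocyte markers the sum was 36.6 with dsDNA and 35.5 in the control, for epithelial markers 35 and 34.8, and for endothelial markers 38.1 and 37.4. The lists differ in size, so these sums are set only between the 2 arrays and not between cell types.

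With dsDNA, 445 genes were higher in hSTING cells, which is 2.01% of those measured, and 111 were lower, which is 0.5%. The positive differences were far larger than the negative ones. They reached 7.52. By the log2 difference itself, without replacing dim signals by the median, 128 genes were at 4-fold or more, 54 at 8-fold or more and 25 at 16-fold or more. The lower bound of such a gene can be smaller, as for Mx1, with a difference of 4.14 and a bound of 6.82-fold. The lowest difference was -1.94, so that 0 genes were 4-fold lower. Of the genes that were higher, 93 were below the median in the control, and of those that were lower, 21 were below it with dsDNA. Protein-coding genes made up 419 of the higher and 97 of the lower genes. In a bulk culture, fewer cells of a type and less RNA per cell cannot be told apart.

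Fewer genes passed 2-fold with dsDNA in the other lines. In N154S cells 84 genes were higher (0.379%) and 24 lower (0.108%), in R284S cells 6 were higher (0.0271%) and 9 lower (0.0406%), and in vector cells 33 were higher (0.149%) and 8 lower (0.0361%). The difference had an SD over all genes of 0.45 in hSTING cells, against 0.29 in N154S, 0.25 in R284S and 0.26 in vector cells. The hSTING pair shares no array with these. Control signals differed between the lines. The IFIT, OAS and ISG15 antiviral list had a control median of 6.95 in hSTING, 8.09 in N154S, 7.33 in R284S and 4.84 in vector cells. Acod1 read 3.24, 7.18, 9.65 and 3.63 in these controls, while Ifnb1 read 3.21, 2.82, 4.06 and 3.18. The part of the control signals in the counts was not tested. The genes that were higher in hSTING cells included 76 of those that were higher in N154S cells (90.5% of the N154S genes and 17.1% of the hSTING genes), 1 of those in R284S cells (16.7% and 0.225%) and 22 of those in vector cells (66.7% and 4.94%). Of the genes that were lower, hSTING cells shared 14 with N154S cells (58.3% of the N154S genes and 12.6% of the hSTING genes), 2 with R284S cells and 0 with vector cells. Over all genes, Pearson's r of the hSTING differences was 0.44 with those of N154S cells, 0.12 with those of R284S cells and 0.12 with those of vector cells, as a description across genes.

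**Figure D1:**
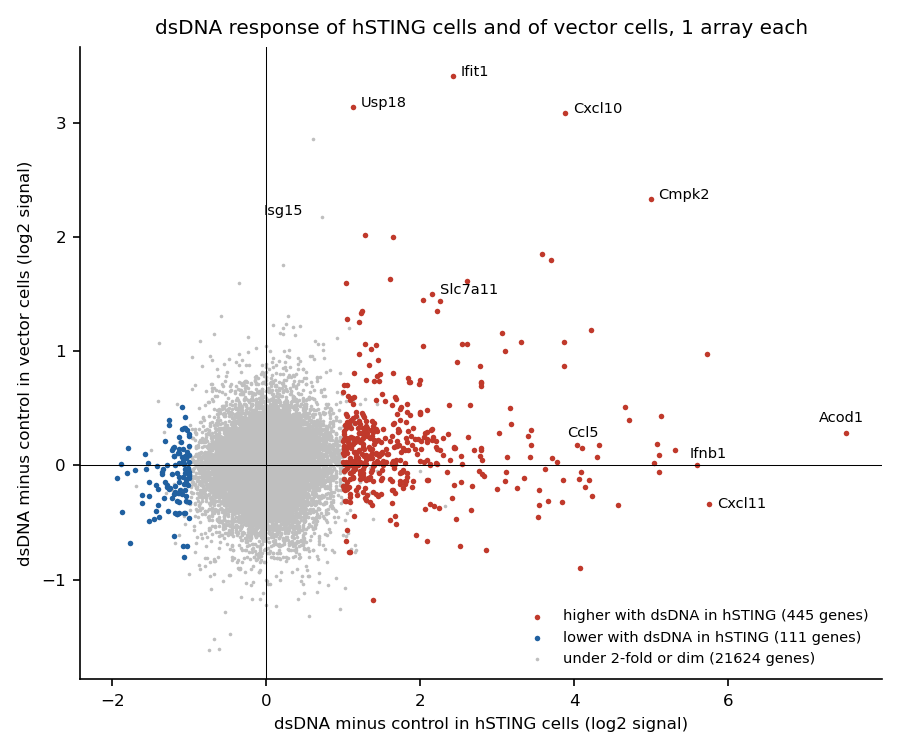
Each point is 1 of 22180 genes, with its dsDNA minus control difference in hSTING cells on the horizontal axis and that in vector cells on the vertical axis, both in log2 signal, 1 array for each culture. The cloud to the right holds the 445 genes that were higher in hSTING cells, with a median of 0.13 on the vertical axis, while Ifit1, Usp18, Cxcl10 and Cmpk2 lie high on it.

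The largest difference was that of Acod1, the enzyme that makes itaconate. Its signal was 10.76 with dsDNA and 3.24 in the control, at least 79.3-fold higher, while vector cells read 3.91 with dsDNA and 3.63 in the control. It was below the median on 3 of these 4 arrays and bright on the other. The alarmin gene Il33, 34.3-fold higher, read 9.64 with dsDNA and 4.54 in the control. The ubiquitin ligase gene Neurl3 read 10.59 and 5.56 and was 32.7-fold higher. By their selection, the 445 higher genes were brighter with dsDNA in hSTING cells than on the hSTING control array. All 445 were also brighter there than on both vector arrays, and 381 were brightest there among all 8 arrays. The genes were chosen for a high signal on this same array, which favours these counts too, so they are no separate support. Of the 25 genes with the largest positive differences, all 25 were above both vector arrays and 24 were brightest among all 8. The exception was Ccl5, which read 12.70 in hSTING cells with dsDNA, against 12.79 with dsDNA in N154S cells and 13.09 with dsDNA and 13.01 in the control in R284S cells.

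**Figure D2:**
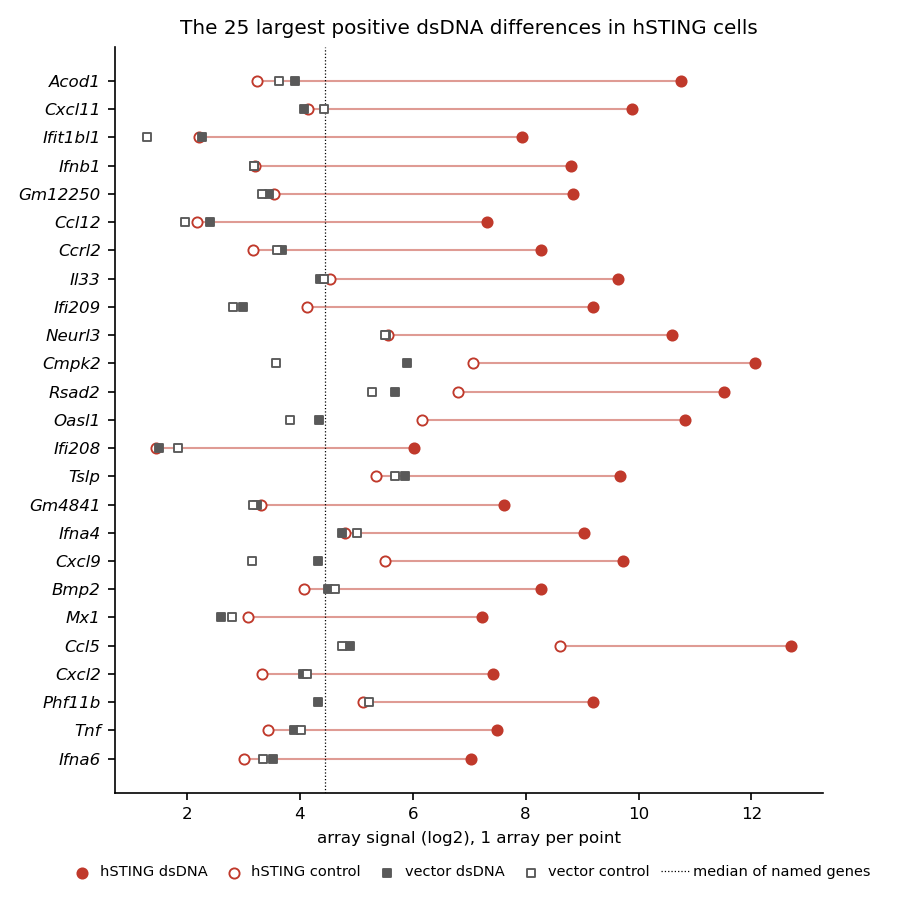
The 25 genes with the largest positive differences run down the page, and the horizontal axis is the log2 signal of 1 array per point, with filled circles for hSTING with dsDNA, open circles for hSTING control, filled squares for vector with dsDNA and open squares for vector control. The filled circle is the rightmost mark in all 25, and the other 3 marks lie on either side of the median of named genes (dotted line). Its place against the open circle follows from the selection, which also favours its place against the squares.

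Of the 19 type I and type III interferon genes measured, 5 were higher with dsDNA and 0 lower. Ifnb1, which encodes interferon beta, read 8.80 with dsDNA and 3.21 in the hSTING control, at least 20.4-fold higher, and 3.18 on both vector arrays. Ifna4 read 9.03 with dsDNA and 4.80 in the control (18.8-fold), and Ifna6 read 7.04 and 3.01 (at least 6.02-fold). Both are interferon alpha genes. Ifna1 was 4.53-fold and Ifna15 2.43-fold higher. The list as a whole had a median difference of 0.15 and was mostly dim, with 12 of the 19 genes below the median on the dsDNA array. The alpha genes are near-identical to each other, so a signal cannot be assigned to 1 of them with certainty. The interferon lambda genes Ifnl2 and Ifnl3 had differences of 0.06 and -0.41.

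Most genes of the steps between DNA and interferon were under 2-fold. Of the DNA sensing and nucleic acid clearance genes, 1 of 16 was higher and 0 lower, with a median of 0.14. That gene was Samhd1, which breaks down deoxynucleotides and limits viral DNA synthesis, at 10.24 with dsDNA and 8.12 in the control (4.35-fold). The kinase gene Tbk1 read 8.30 with dsDNA and 7.44 in the control, the sensor gene Cgas 5.88 and 5.14, and Irf3 5.70 and 6.15, all under 2-fold. Of the interferon regulatory factors and JAK-STAT genes, 4 of 27 were higher and 0 lower. They were Irf1 (4.47-fold), an interferon- and NF-kB-driven transcription factor, the receptor kinase gene Jak2 (2.87-fold), Irf7 (2.35-fold), which amplifies interferon alpha transcription, and Stat2 (2.04-fold). The median of this list was 0.23 in hSTING and 0.04 in vector cells, where 3 members were also higher past 2-fold, Stat2 by 1.60, Irf7 by 1.33 and Irf9 by 1.0. The interferon receptor genes Ifnar1 and Ifnar2 had differences of 0.33 and 0.32.

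The RNA sensors form a parallel route to interferon. With dsDNA, 4 of 9 were higher and 0 lower in hSTING cells, with a median difference of 0.95. In vector cells 4 of 9 were also higher and 0 lower, with a median of 0.94. Tlr3, the endosomal receptor for double-stranded RNA, read 10.31 with dsDNA and 7.01 in the control (9.85-fold), and Ifih1, which encodes the sensor MDA5, read 11.39 and 8.33 (8.34-fold). Dhx58 was 2.36-fold and Trim25 2.20-fold higher. The vector differences of Tlr3, Ifih1, Dhx58 and Trim25 were 1.08, 1.16, 1.35 and 0.81. Tlr3, Ifih1 and Dhx58 were thus past 2-fold in the line without STING too, and Trim25 was not. The 4 genes counted in each line are therefore not all the same.

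The antiviral genes of the IFIT, OAS and ISG15 groups were the list with the most members higher, 39 of 53 with 0 lower, and a median difference of 1.45 against -0.01 over all genes. Rsad2, which encodes the antiviral enzyme viperin, read 11.51 with dsDNA and 6.80 in the control (26.2-fold). Cmpk2, a mitochondrial nucleotide kinase, read 12.06 and 7.07 (31.8-fold). Oasl1 was 25.3-fold higher, and Mx1, of a GTPase family but classed by RefSeq as a transcribed pseudogene, at least 6.82-fold. Some members were already bright in the hSTING control. Isg15, the ubiquitin-like modifier, read 11.46 with dsDNA and 10.74 in the control, and Usp18, its deconjugating enzyme, 12.01 and 10.88. These had larger differences in vector cells, 2.17 for Isg15 and 3.14 for Usp18, as did Ifit1, an RNA-binding antiviral protein, with 3.41 in vector cells against 2.42 in hSTING cells. The list had a median of 0.58 in vector cells. Array signals can be compressed at the bright end, and its part in the differences of bright genes was not tested.

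The interferon-induced GTPases attack the membranes around intracellular microbes. Of 13 measured, 10 were higher and 0 lower, with a median of 2.61 in hSTING cells and 0.47 in vector cells. Iigp1 read 10.68 with dsDNA and 6.98 in the control (13.0-fold), and Gbp5 7.87 and 4.02 (at least 10.7-fold). The Ifi200 family of nucleic acid binding proteins was higher as a group, with 7 of 9 members and 0 lower and a median of 2.20, against 0.05 in vector cells. Ifi209 read 9.20 with dsDNA and 4.13 in the control (at least 26.9-fold), and Ifi205 11.97 and 8.39 (12-fold). The inflammasome sensor gene Aim2 was dim, at 4.58 with dsDNA and 2.90 in the control. Genes of both families have close copies that may share probes.

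Motifs known from interferon-stimulated and NF-kB target genes were looked for in the promoters of these genes, from 250 bases before to 50 after the start in RefSeq (GRCm38.p6), which held a promoter for 16918 of the genes, 339 of the higher and 75 of the lower. The interferon-stimulated response element (ISRE) was searched as GAAANNGAAA and the NF-kB site as GGGANNTTCC, each on both strands and with N for any base. The stretches below come from genes of the antiviral, chemokine and interferon lists that were higher and hold a match upstream of the start, and capitals mark the matched bases, in which 2 overlapping matches are joined for Cxcl2. They are written 5′ to 3′ on the gene's strand.
Ifnb1, chr4:88522886-88522925, minus strand: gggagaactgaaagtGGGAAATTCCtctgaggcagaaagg
Cxcl10, chr5:92349024-92349117, minus strand: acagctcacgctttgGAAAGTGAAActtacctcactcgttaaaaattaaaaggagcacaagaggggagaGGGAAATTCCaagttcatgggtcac
Cxcl2, chr5:90903787-90903827, plus strand: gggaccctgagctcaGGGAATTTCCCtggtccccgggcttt
Rsad2, chr12:26456548-26456587, minus strand: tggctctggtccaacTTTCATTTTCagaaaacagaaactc
Ifit1, chr19:34640770-34640828, plus strand: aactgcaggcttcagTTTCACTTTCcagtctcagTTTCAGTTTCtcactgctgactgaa

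Ifnb1 and Cxcl2 show the NF-kB letters, Rsad2 and Ifit1 the ISRE letters, and Cxcl10 both. Over all promoters, 3.88% held the ISRE letters, against 18.6% of the genes that were higher, 28.3% of those at 4-fold or more and 36.8% of those at 8-fold or more. These steps are by the log2 difference, without replacing dim signals by the median. The NF-kB letters were in 1.63% of all promoters, 4.42% of the higher genes, 12% at 4-fold or more and 23.7% at 8-fold or more, which is 9 of 38 genes. Of the genes that were lower, 4% held the ISRE letters and 0 of 75 the NF-kB letters. Both motifs together were in 2 of the 38 genes at 8-fold or more and in 13 of all 16918. Acod1, the gene with the largest difference, held neither. The letters describe these windows and do not show that a factor binds there.

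**Figure D3:**
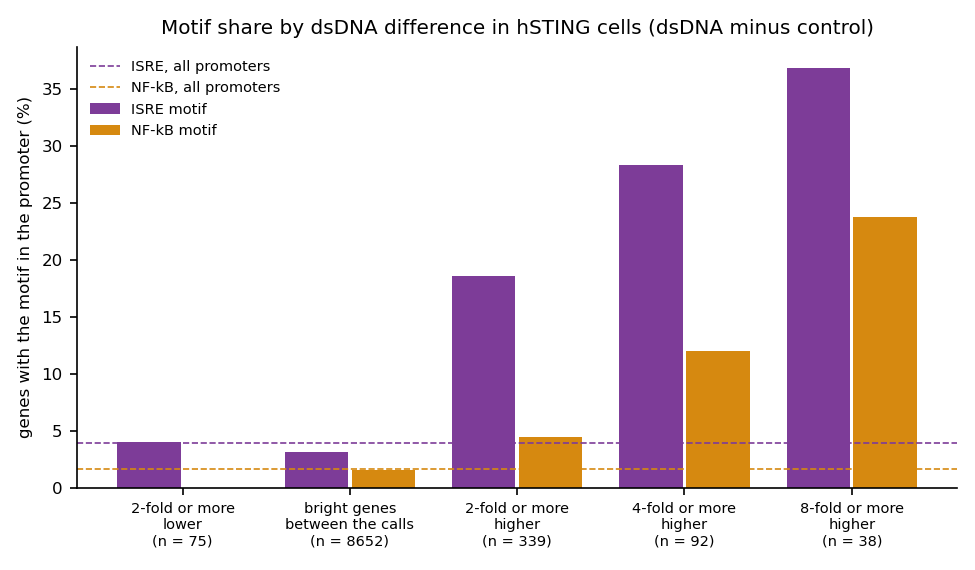
Bars give the percentage of genes whose promoter holds the ISRE letters (purple) or the NF-kB letters (orange), for genes ordered by their dsDNA minus control difference in hSTING cells, with the number of genes in brackets; the sets at 2-fold, 4-fold and 8-fold are nested. The ISRE bars climb to 36.8% and the NF-kB bars to 23.7% at 8-fold or more, above the dashed lines for all promoters at 3.88% and 1.63%.

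Chemokines, the secreted proteins that attract leukocytes, were higher for 15 of 30 genes and lower for 0, with a median of 1.04 in hSTING cells and 0.00 in vector cells. Cxcl10, a CXCR3 ligand that attracts activated T cells, and Cxcl11, named as a ligand of the same receptor, were both among them. RefSeq classes Cxcl11 as a transcribed pseudogene, so its signal is not read as a working protein. Cxcl11 read 9.89 with dsDNA and 4.14 in the control (at least 43.4-fold), and 4.08 with dsDNA and 4.42 in the control in vector cells. Cxcl10 read 12.86 and 8.98 in hSTING cells (14.7-fold), and its vector difference was 3.08. Ccl5, which attracts T cells and monocytes, was 17.1-fold higher with 12.70 and 8.60, while its vector difference was 0.15. The neutrophil attractant gene Cxcl2 read 7.42 with dsDNA and 3.33 in the control (at least 7.84-fold), and Ccl4 was at least 6.5-fold higher. Ccl2 and Ccl7, already bright in the control at 11.57 and 11.55, had differences of 0.95 and 0.92. Cxcl12, a fibroblast chemokine that retains leukocytes in tissue, read 8.30 with dsDNA and 9.02 in the control.

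Inflammatory cytokines and enzymes were higher for 19 of 36 genes, with 0 lower and a median of 1.10 against -0.02 in vector cells. Tnf, the gene for tumour necrosis factor, read 7.50 with dsDNA and 3.44 in the control (at least 8.28-fold). Il6 read 10.5 and 7.48 (8.11-fold), and Tslp, a cytokine of barrier tissues, 9.67 and 5.35 (20.0-fold). In vector cells the differences of these genes were -0.12 for Tnf, 0.28 for Il6 and 0.18 for Tslp. The growth factor gene Csf2 was at least 9.85-fold higher and Nos2, which makes nitric oxide, 7.94-fold. Ch25h, which makes 25-hydroxycholesterol, was 5.39-fold higher.

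NF-kB subunits and feedback genes were higher for 11 of 28 members and lower for 0, with a median of 0.72, against 0.06 in vector cells. Tnfaip3, the deubiquitinase that ends NF-kB signalling, read 8.46 with dsDNA and 5.67 in the control (6.92-fold). The inhibitor genes Nfkbie and Nfkbia were 3.39-fold and 2.81-fold higher, and the adhesion genes Icam1 and Vcam1 3.27-fold and 2.83-fold. Their vector differences were at most 0.29, that of Icam1. Among immediate early transcription factors, 5 of 31 were higher and 0 lower, led by the stress-responsive repressor Atf3, which read 9.10 with dsDNA and 5.98 in the control (8.69-fold).

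Class I antigen presentation shows peptides from inside the cell to CD8 T cells. Of its genes 12 of 22 were higher and 0 lower, with a median of 1.12 in hSTING cells and 0.18 in vector cells. Nlrc5, the transactivator of class I genes, read 6.96 with dsDNA and 4.84 in the control (4.35-fold). The peptide transporter gene Tap1 was 3.63-fold, the immunoproteasome gene Psmb9 3.36-fold and the heavy chain gene H2-K1 2.13-fold higher. Class II genes had 0 of 10 higher and 0 lower, and 2 of the 10 reached the median on either array. Of immune surface ligands, 5 of 20 were higher and 0 lower. Cd274, which encodes the T cell inhibitor PD-L1, read 9.12 with dsDNA and 5.25 in the control (14.6-fold), with a vector difference of 0.87.

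Among cell death genes, 7 of 33 were higher and 0 lower. They included Casp4 (4.23-fold), the caspase that senses bacterial lipopolysaccharide, Mlkl (3.97-fold), the effector of necroptosis, and Gsdmd (2.50-fold), the pore former of pyroptosis. The Schlafen and PARP genes were higher for 9 of 16, and the TRIM genes for 8 of 18, with 0 lower in both. The lists share some members, such as Parp14 and Trim25 with the antiviral list. Parp14, an ADP-ribosyltransferase, read 10.06 with dsDNA and 6.96 in the control (8.57-fold). Mpeg1, a pore-forming protein of macrophages, was the member of the macrophage marker list that was higher, at 6.54 with dsDNA and 2.88 in the control. The list had a median difference of 0.06, and 5 of its 18 genes reached the median signal on an hSTING array. Ptprc and Adgre1 stayed at the low signals given above.

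The lists of other stress pathways are small, and their counts stand beside 2.01% of all genes higher and 0.5% lower. The unfolded protein response list had 0 of 22 higher and 0 lower, the p53 target list 1 of 22 higher (Eda2r), the heat shock chaperones 2 of 17 (Hspa1b and Hspa1a) and the ATF4 list 1 of 30, with 0 lower in each. NRF2 antioxidant genes were higher for 2 of 18 in hSTING and 5 of 18 in vector cells, and for 1 of 18 each in N154S and R284S cells. Their median was nearly the same in hSTING and vector cells, 0.36 and 0.39. Of these, Slc7a11, the cystine transporter, read 7.68 with dsDNA and 5.53 in the hSTING control, and its difference of 2.15 compares with 2.27 in N154S, 2.40 in R284S and 1.5 in vector cells. Hmox1, the heme-degrading enzyme, had differences of 1.05 in hSTING and 1.28 in vector cells. These 2 genes were thus higher in hSTING and in vector cells alike. The highest hSTING difference in the ATF4 list was also 2.15, the value of Slc7a11.

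**Figure D4:**
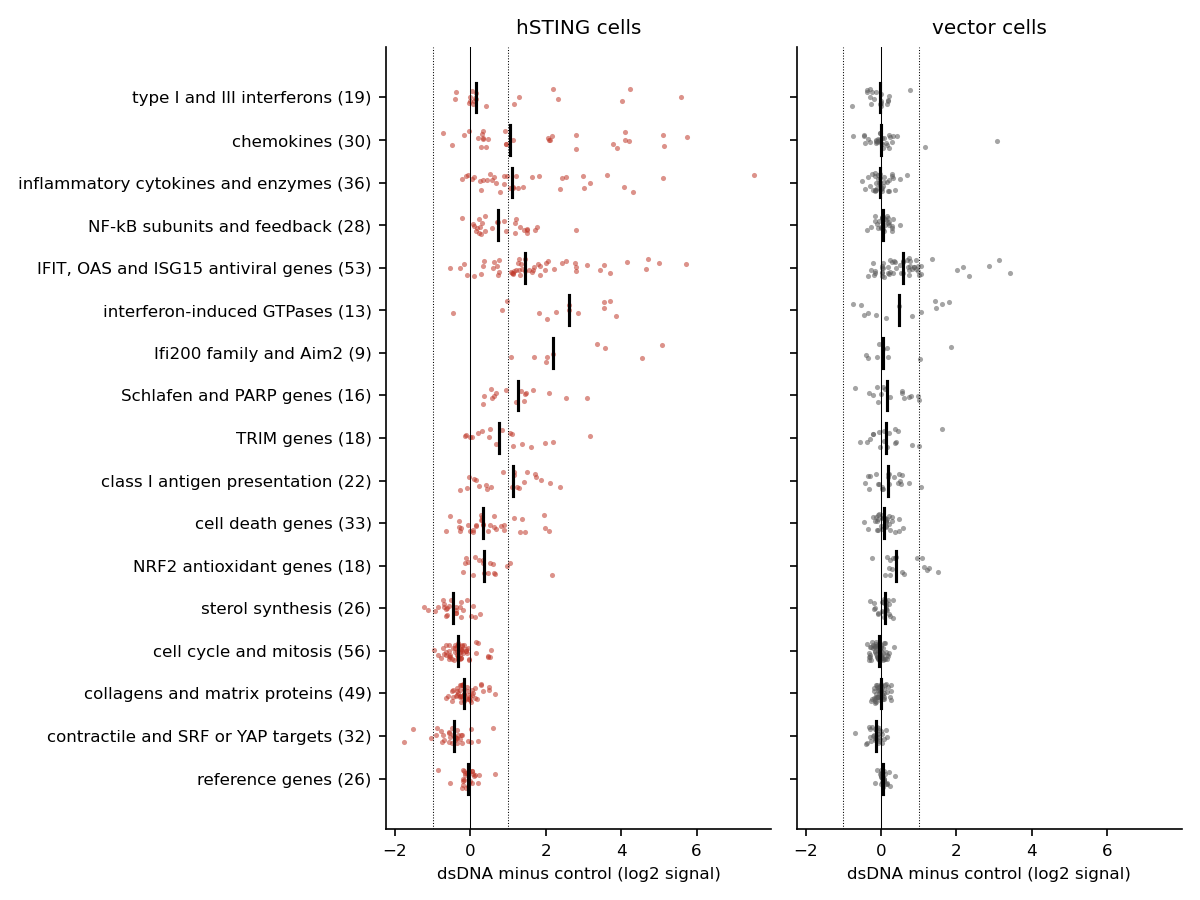
Each point is the dsDNA minus control difference (log2 signal) of 1 list member in hSTING cells (left) and vector cells (right), with the number of measured members in brackets, the median as a black bar and dotted lines at 2-fold. The interferon-linked and inflammatory lists extend to the right in hSTING cells, with medians up to 2.61, the NRF2 list has medians of 0.36 and 0.39, and the sterol and contractile lists lie left of 0 in hSTING cells.

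Of the 111 genes that were lower, 12 (10.8%) were in any of the lists, against 171 (38.4%) of the 445 that were higher and 933 (4.21%) of all genes measured. The 25 lowest had differences of -1.94 to -1.34. Setbp1, which encodes a chromatin-associated protein, read 3.99 with dsDNA and 5.93 in the hSTING control (at least 2.79-fold lower), while vector cells read 6.39 and 6.5. Osr1, a transcription factor of embryonic mesenchyme, read 6.11 with dsDNA and 8.0 in the control (3.71-fold lower), against 8.06 and 8.05 in vector cells. Edn1, the gene for the vasoconstrictor endothelin, read 4.94 and 6.71 (3.41-fold lower), and its vector difference was -0.68. By their selection, the 25 were dimmer with dsDNA than in the hSTING control. In all 25 the hSTING dsDNA array was also dimmer than both vector arrays, and in 19 it was the dimmest of all 8. Over the 111 lower genes these counts were 109 and 85. Choosing genes for a low signal on this same array favours these counts too. Trav9d-3 rests on 1 of 5 probe sets with that symbol, and the other 4 had differences of -0.18, 0.06, 0.19 and 0.82. For Dact1, a second and dimmer probe set had -0.05 beside -1.79.

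**Figure D5:**
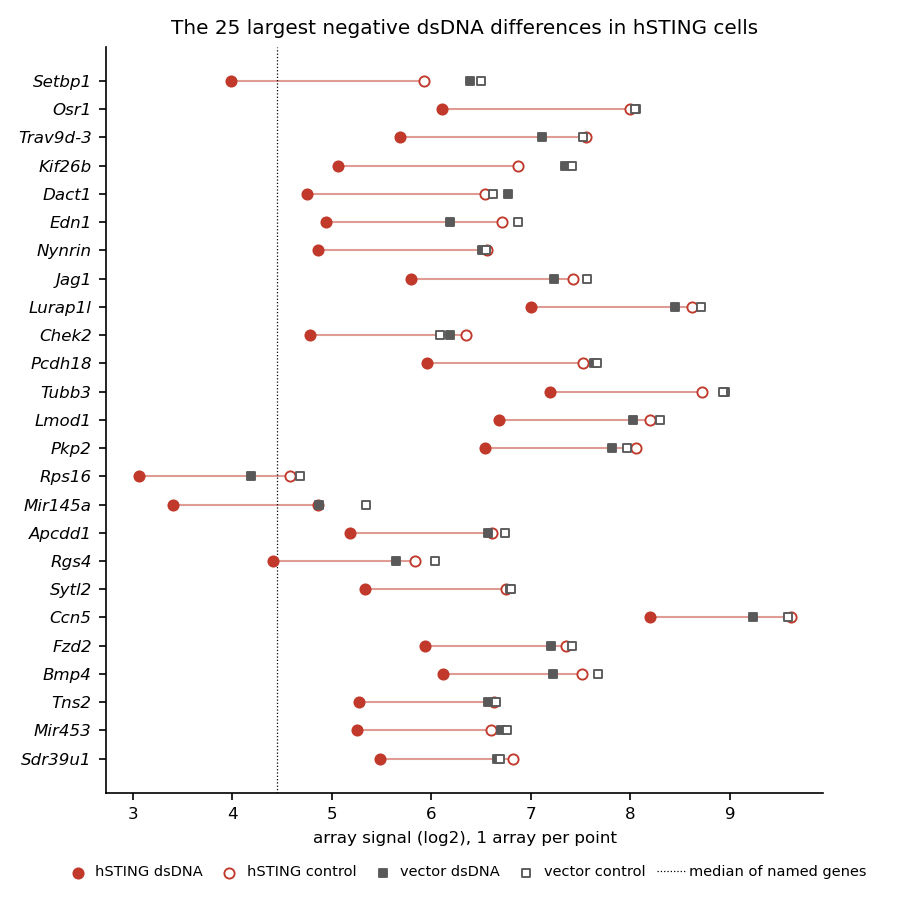
The 25 genes with the largest negative differences run down the page, with the log2 signal of 1 array per point on the horizontal axis and the marks as filled circles for hSTING with dsDNA, open circles for hSTING control, filled squares for vector with dsDNA and open squares for vector control. The filled circle is the leftmost mark in all 25, where its place against the open circle follows from the selection. The selection also favours its place against the squares. The differences, of -1.94 to -1.34, are short beside those of the genes that were higher.

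Among other genes of the 25 lowest, Jag1, a ligand of Notch receptors, read 5.80 with dsDNA and 7.42 in the control (3.07-fold lower). The Wnt receptor gene Fzd2 was 2.66-fold and the Wnt inhibitor gene Apcdd1 2.69-fold lower. In the list of Wnt modulators and mesenchymal transcription factors, 3 of 49 were lower (Osr1, Snai1 and Dkk2) and 1 higher (Foxf1), with a median of -0.11. Growth factor and TGF-beta family genes were divided, with 6 of 46 higher and 2 lower. Bmp2, a bone morphogenetic protein, read 8.27 with dsDNA and 4.08 in the control (at least 14.1-fold higher), while its relative Bmp4 read 6.12 and 7.51 (2.62-fold lower). Vector cells had differences of -0.13 for Bmp2 and -0.45 for Bmp4. The direct BMP target genes Id1 and Id3 had differences of -0.86 and -0.87.

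Sterol synthesis genes, which build cholesterol from acetyl units, were below 0 for 22 of 26 members in hSTING cells and 6 of 26 in vector cells, with medians of -0.46 in hSTING, -0.15 in N154S, 0.06 in R284S and 0.10 in vector cells. In hSTING cells 2 of them were lower past 2-fold. Sqle, which makes the squalene epoxide that is closed into the sterol rings, read 6.83 with dsDNA and 8.05 in the control (2.33-fold lower), against 8.28 and 8.15 in vector cells. Dhcr7, the last enzyme to cholesterol in 1 branch of the pathway, read 5.60 and 6.73 (2.19-fold lower). Contractile genes and targets of the factors SRF and YAP were below 0 for 28 of 32 in hSTING cells and 27 of 32 in vector cells, with medians of -0.43 in hSTING, -0.36 in N154S, -0.20 in R284S and -0.12 in vector cells. Lmod1, an actin nucleator of smooth muscle, was 2.87-fold and the actin gene Acta1 2.06-fold lower, and with Edn1 these were the 3 members past 2-fold.

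Cell cycle and mitosis genes were below 0 for 49 of 56 in hSTING cells and 38 of 56 in vector cells, without any passing 2-fold, while 11203 of all 22180 genes were below 0 in hSTING cells. The medians were -0.32 in hSTING, -0.24 in N154S, -0.12 in R284S and -0.06 in vector cells. The thymidine kinase gene Tk1 was lowest of those at -0.98, with 7.04 with dsDNA and 8.02 in the control, followed by the mitotic activator gene Cdc20 at -0.85. Collagen and matrix genes had a median of -0.17 and 0 of 49 past 2-fold in either direction. Of 25 matrix proteases and inhibitors, 2 were higher and 2 lower, with the collagenase gene Mmp13 3.16-fold and Mmp10 3.51-fold higher, and Adamts1 and Adamts5, which cleave proteoglycans, 2.27-fold and 2.33-fold lower.

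MicroRNA genes made up 8 of the 111 lower genes (7.21%) and 0 of the 445 higher genes, against 478 of all 22180 genes (2.16%). Of these, 6 lie in a run of hairpins on chromosome 12, chr12:109682197-109747960 (GRCm38.p6), with gaps under 50 kb, a set chosen after its values were seen. Of 38 hairpins annotated there 31 were measured, and 26 of these were below 0, with a median of -0.52 in hSTING, -0.33 in N154S, -0.10 in R284S and -0.12 in vector cells. The other 447 microRNA genes had a median of 0.06 in hSTING cells. Signals were low, with 11 of the 31 at or above the median on either hSTING array. The sequences of the 2 genes with the largest differences are given with the seed, bases 2 to 8, in capitals, and neither shares a seed with the other 4.
mmu-miR-453: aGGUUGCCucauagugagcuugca
mmu-miR-382-5p: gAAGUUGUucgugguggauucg
mmu-miR-382-3p: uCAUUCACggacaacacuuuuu

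The gene Mir453 had a difference of -1.35 and Mir382 one of -1.32. Each hairpin gene has 1 value on the array, which does not separate the mature strands.

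Whether the dsDNA effect in hSTING cells differed from that in the other lines was tested with limma over all 8 arrays. Against the mean effect of N154S, R284S and vector cells, 7 genes passed an adjusted p of 0.05, all higher in hSTING cells, which is 0.0316% of those tested. They were Ccl12 at 4.61 (SE 0.25, limma adjusted p = 0.0256), Ifna4 at 4.27 (SE 0.24, adjusted p = 0.0256), Ifi209 at 4.52 (adjusted p = 0.027), Ccl5 at 3.83 (adjusted p = 0.0312), Mpeg1 at 3.75 (adjusted p = 0.0343), and Ifit1bl1 at 5.19 and Ifna6 at 4.16 (adjusted p = 0.039 each). The spread between the effects of the other 3 lines is the only error the test has, with 2 residual degrees of freedom. Ccl5 and Ifi209 were already bright in the N154S control, at 12.22 and 8.14, and their N154S effects were 0.57 and 0.71. Without any 1 of the 3 other pairs of arrays, 0 genes passed. Acod1, Ifnb1 and Cxcl11, with N154S effects of 3.24, 2.13 and 2.58, did not pass in limma (adjusted p = 0.218, 0.243 and 0.256).

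Against vector cells alone, the line without STING, 0 genes (0%) passed in limma, with 1864 at an unadjusted p under 0.05 and 1 residual degree of freedom. With a trend and robust variances 118 genes were past the threshold higher and 26 lower. The difference of effects was 4.50 for Ifna4 and 7.24 for Acod1. The only error of this test is the unevenness of the dsDNA effect between N154S and R284S cells. It holds no spread within hSTING or vector cells, the 2 lines compared. For Acod1 the effects in N154S and R284S cells were 3.24 and 0.25.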

How the data were processed

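RNA from 8 cultures was measured on Affymetrix arrays, 300 ng of total RNA per sample, per the labels' protocols. The authors used Affymetrix Expression Console 1.3.1.187, per the submitters' processing notes, and its algorithm and background correction are not given there. Values were deposited as log2 signals for 41345 probe sets, with no detection calls, and sorted values of any 2 arrays differ by at most 0.25. Precision is limited by the number of arrays.

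Names came from the platform's annotation table. Of the probe sets, 23521 had 1 symbol and were used, 1814 had several and 16010 were not listed. For 1082 genes with several probe sets the brightest over all arrays was taken. Of the genes, 21994 matched the RefSeq table by identifier. Named are the 25 highest and 25 lowest genes, up to 10 genes per direction of each fit, and members of 39 lists. Genes and lists were chosen with earlier results of these data known. Fits used limma 3.58.1 in R 4.3.3 with Benjamini-Hochberg adjustment at 0.05. They were also run on simulated data, with the same dsDNA effect in the other lines and noise independent between arrays. In the real data the error is the unevenness of that effect between lines, so the simulation does not back the genes that passed. Tables and figures were made in Python 3.11.15 with pandas 2.3.3.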

Additional observations from a re-analysis of the deposited data

Results flagged for a closer look

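The dsDNA effect in hSTING cells differed from the mean effect of N154S, R284S and vector cells for 7 genes in the limma test of that difference. The difference of effects was 4.61 for Ccl12, 4.27 for Ifna4, 4.52 for Ifi209, 3.83 for Ccl5, 3.75 for Mpeg1, 5.19 for Ifit1bl1 and 4.16 for Ifna6. All 7 also passed with a trend and robust variances, and 0 of them without any 1 of the other pairs of arrays.

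Probe sets annotated to several gene symbols were in no comparison. Of 1814 such probe sets, 41 were 2-fold or more higher with dsDNA in hSTING cells and 10 lower. Both shares are close to those over all 22180 genes, which were 2.01% higher and 0.5% lower. In N154S cells 11 of these probe sets were higher and 1 lower, in R284S cells 2 and 2, and in vector cells 0 and 0. Of the 16010 probe sets without a listed gene, 175 were higher and 185 lower in hSTING cells, 104 and 113 in N154S, 144 and 108 in R284S and 98 and 132 in vector cells.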

How the results depend on the processing

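The counts of 445 higher and 111 lower genes stayed within 1.5 times under each alternative run (no filter on dim genes, both arrays at or above their medians, mean of all probe sets, quantile normalization, reference-gene centring, protein-coding genes only), at 352 to 494 and 81 to 137. The test against the mean of the other 3 lines gave 7 genes, 341 with a trend and robust variances, 4 with quantile normalization and 0 without the vector, N154S or R284S pair. With the filter on dim genes it gave 7 genes, of which 3 were among the first 7. The test against vector cells gave 0 genes, 144 with a trend and robust variances and 25 with quantile normalization. Of 150 values of the 25 highest and 25 lowest genes under alternatives, 147 moved by less than the SD of the reference genes. The other 3, Trav9d-3, Dact1 and Nynrin, were nearer 0 as the mean of all probe sets (-0.20, -0.92 and -1.08). The rest of these genes have 1 probe set each, so that mean could not move them. Reference-gene centring shifts all genes alike, and quantile normalization acted on arrays whose sorted values differ by at most 0.25. The 147 values are thus no strong check. All 117 list medians moved by less than that SD. No paired analysis was possible because each group has 1 array and the replicate number only names it. Without replicates, no measure of array or culture noise stands beside a difference within hSTING cells, and low signals are not read as absence.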

Other observations

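Other genes that were 2-fold or more higher or lower in hSTING cells lie outside the gene lists, and those named here were chosen after their values were seen. The lipoprotein receptor gene Tlr2 read 8.45 with dsDNA and 5.68 in the control, a difference of 2.77 against 0.08 in vector cells. Its adaptor gene Myd88 read 9.58 and 8.16. Cybb, a subunit of the phagocyte NADPH oxidase, read 5.17 and 2.87. Tnfsf18, a ligand of the TNF family that costimulates T cells, read 7.37 and 3.53.

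Kinases of the DNA damage response differed in direction. Atm, which signals DNA double-strand breaks, read 8.02 with dsDNA and 5.49 in the control, a difference of 2.53 against 0.08 in vector cells. Chek2, a kinase that ATM activates, had a difference of -1.57 in hSTING cells and 0.10 in vector cells, and the repair gene Brca2 -1.18 and -0.18. Among Notch pathway genes, the target gene Hes1 read 6.60 with dsDNA and 7.72 in the control, beside its ligand gene Jag1 at -1.62. The non-coding RNA gene Carmn, host of the muscle-linked microRNAs, had -1.13 in hSTING and -0.42 in vector cells. Of the non-coding genes near the chromosome 12 microRNAs, Meg3 had -0.56 and Rian -0.33 in hSTING cells.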
